A study of Mus musculus with 66 samples.

Results

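A 10 min pulse of 4-thiouridine labelling separates the RNA that a cell has just made from the RNA that it holds, and the 10 genes described here were chosen as genes in which the new and the total amounts changed unequally after Myc was activated. The 10 of 11513 genes in the tables are Cln3, Pnrc2, Gps2, Ndufaf3, Trp53inp2, Cdkn3, Cdc42ep2, Matn2, Dtnb and Dlg1. They were chosen by measured values: total exon RNA had changed by more or by less than new exon RNA at 4 h or 16 h against 0 min. Exon values at 0 min, 4 h and 16 h are therefore given as a description with no test. Tested differences are between means of libraries that the choice did not use, but their error was estimated over all times, those of the choice included. In fits added after the data were seen, with no library of 0 min, 4 h or 16 h, 6 in place of 7 of the genes differed between total and new exon change. All 10 genes passed the filter on low values (10 or more in 3 or more libraries) in each of the 4 tables used.

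The cells were 3T9-MycER fibroblasts, a line of mouse embryonic fibroblasts whose c-myc alleles are floxed and which carries a retroviral MycER construct. In MycER, Myc is joined to a piece of the oestrogen receptor that responds to 4-hydroxytamoxifen (OHT), which switches the fusion on. Cells taken at 0 min were compared with cells given 400 nM OHT for between 10 min and 16 h (10, 20 and 30 min, then 1, 1.5, 2, 4, 8, 12 and 16 h), and all groups carried the construct and the floxed alleles. At each of the 11 times 3 labelled libraries (new RNA, from cells given 300 µM 4-thiouridine in the last 10 min) and 3 total RNA libraries were made, 66 in all. No time course without OHT was analysed here, so OHT and time in culture cannot be told apart, and all cells are 1 line. Whether replicates were separate cultures is not stated in the labels. The p-values thus reflect how far these libraries varied, and that variation may be technical.

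The amount of an RNA is set by how fast it is made and how fast it is lost. In a pulse of labelling, new RNA follows synthesis, whereas total RNA also holds older molecules and approaches a new level at a pace set by its decay. Intron RNA is removed as transcripts mature and so gives another reading of recent synthesis. Myc binds DNA with its partner Max at the letters CACGTG and close relatives, and growth and cell cycle genes are its known targets in fibroblasts.

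The deposited values are whole numbers that had been rescaled before deposit, so true read depth is unknown. Summed per library they came to 1.16e+07 to 1.41e+07 for new exons and 3.13e+07 to 3.93e+07 for new introns. In total RNA the sums were 4.65e+07 to 5.27e+07 (exons) and 1.06e+07 to 1.30e+07 (introns). The labelled cell type was checked on its markers in total RNA. Of 7 fibroblast markers 6 were in the tables, all but Thy1, with a summed level of 2848 to 5170 RPKM. Most of that sum came from Vim (1251 to 2358 RPKM) and S100a4 (1286 to 2382 RPKM). Col1a1 was at 77.9 to 315, Col1a2 at 103 to 291, Fn1 at 85.9 to 265 and Pdgfrb at 4.86 to 17.0 RPKM. Of 4 epithelial markers 0 were in the tables, and Pecam1, 1 of 3 endothelial markers, was at 0.0101 to 0.146 RPKM. Of 3 haematopoietic markers, Ptprc was at 0.124 RPKM or less and Cd68 at 2.10 to 3.26 RPKM; any part of other cells in the results was not tested.

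Promoter windows are shown for Dlg1, Cln3 and Pnrc2, because Myc was the factor activated and these windows hold letters to which it can bind. Each window runs from 250 bases before to 50 bases after a RefSeq transcript start (build GRCm38.p6) and is written on the strand of the gene, with the motif in capitals. They lie at chr16:31663685-31663984 (plus strand) for Dlg1, chr7:126583187-126583486 (minus strand) for Cln3 and chr4:135873797-135874096 (minus strand) for Pnrc2.
Dlg1: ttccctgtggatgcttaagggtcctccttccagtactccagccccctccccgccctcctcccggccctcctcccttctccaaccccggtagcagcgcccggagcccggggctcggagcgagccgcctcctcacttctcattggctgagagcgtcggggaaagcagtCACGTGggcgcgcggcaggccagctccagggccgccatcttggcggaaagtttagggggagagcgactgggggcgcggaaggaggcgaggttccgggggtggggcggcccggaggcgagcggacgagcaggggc
Cln3: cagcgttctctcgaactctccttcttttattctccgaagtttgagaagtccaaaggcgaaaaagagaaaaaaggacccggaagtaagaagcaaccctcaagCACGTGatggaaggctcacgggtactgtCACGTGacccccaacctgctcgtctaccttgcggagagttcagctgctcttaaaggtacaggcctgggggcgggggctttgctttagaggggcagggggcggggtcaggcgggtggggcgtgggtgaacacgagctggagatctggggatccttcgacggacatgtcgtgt
Pnrc2: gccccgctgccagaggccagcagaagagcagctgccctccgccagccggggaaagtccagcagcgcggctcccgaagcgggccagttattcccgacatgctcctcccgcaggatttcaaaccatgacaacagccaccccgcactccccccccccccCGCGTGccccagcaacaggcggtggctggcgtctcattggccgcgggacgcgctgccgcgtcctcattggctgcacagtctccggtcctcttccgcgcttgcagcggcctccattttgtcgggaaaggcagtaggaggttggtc
Of the 10 genes 9 were in the promoter table, with 16 windows. CACGTG, which reads the same on both strands, began 84 bases before the start of Dlg1, and in the Cln3 window it began at 149 and at 121 bases before the start. A further start of Dlg1 (chr16:31663193-31663492) had CACGTG 10 bases before it. Pnrc2 had CGCGTG, the other strand of CACGCG, 94 bases before its start, and CACGCG or CGCGTG stood in 2 of the 4 windows of Dtnb. In all, 3 of the 16 windows held CACGTG, beside 10.1% of the 11369 windows of genes tested here and 7.15% of all 32851 windows. CACGCG or CGCGTG stood in 3 of the 16 windows, beside 17.2% of the windows of genes tested. A match is a description of letters, not a binding site.

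The comparison across many genes took the mean of 8 h and 12 h against the mean of 10 min and 20 min, 6 libraries against 6 in each table. These times are called late and early below. Overlap between the early and late libraries of a gene is a description, given without the share of all genes that did not overlap. Values are deposited values scaled between libraries, changes are log2 differences ± SE on log2(value + 1), which understates the change of low genes, and a call is an adjusted p under 0.05 over all genes. Total exon RNA of 7 genes fell (Cln3, Pnrc2, Gps2, Ndufaf3, Trp53inp2, Cdkn3 and Cdc42ep2) and that of 3 rose (Matn2, Dtnb and Dlg1). Among all 11486 genes, 31.1% rose and 34.5% fell, so a change of total RNA as such was common. In new exons 3 of the 10 genes rose, 3 fell and 4 were not called, where 28.2% of 11488 genes rose and 28% fell. The difference between total and new exon change was called for 7 of the 10, higher in total RNA for 2 and lower for 5. Of 11463 genes tested, 2.27% were called higher in total RNA and 1.67% lower. The median difference was -0.51 over the 10 genes and -0.000913 over all genes. On log2(RPKM + 0.1), which changes the unit and the added constant together, 472 of 630 calls over all genes were higher, beside 260 of 451.

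**Figure D1:**
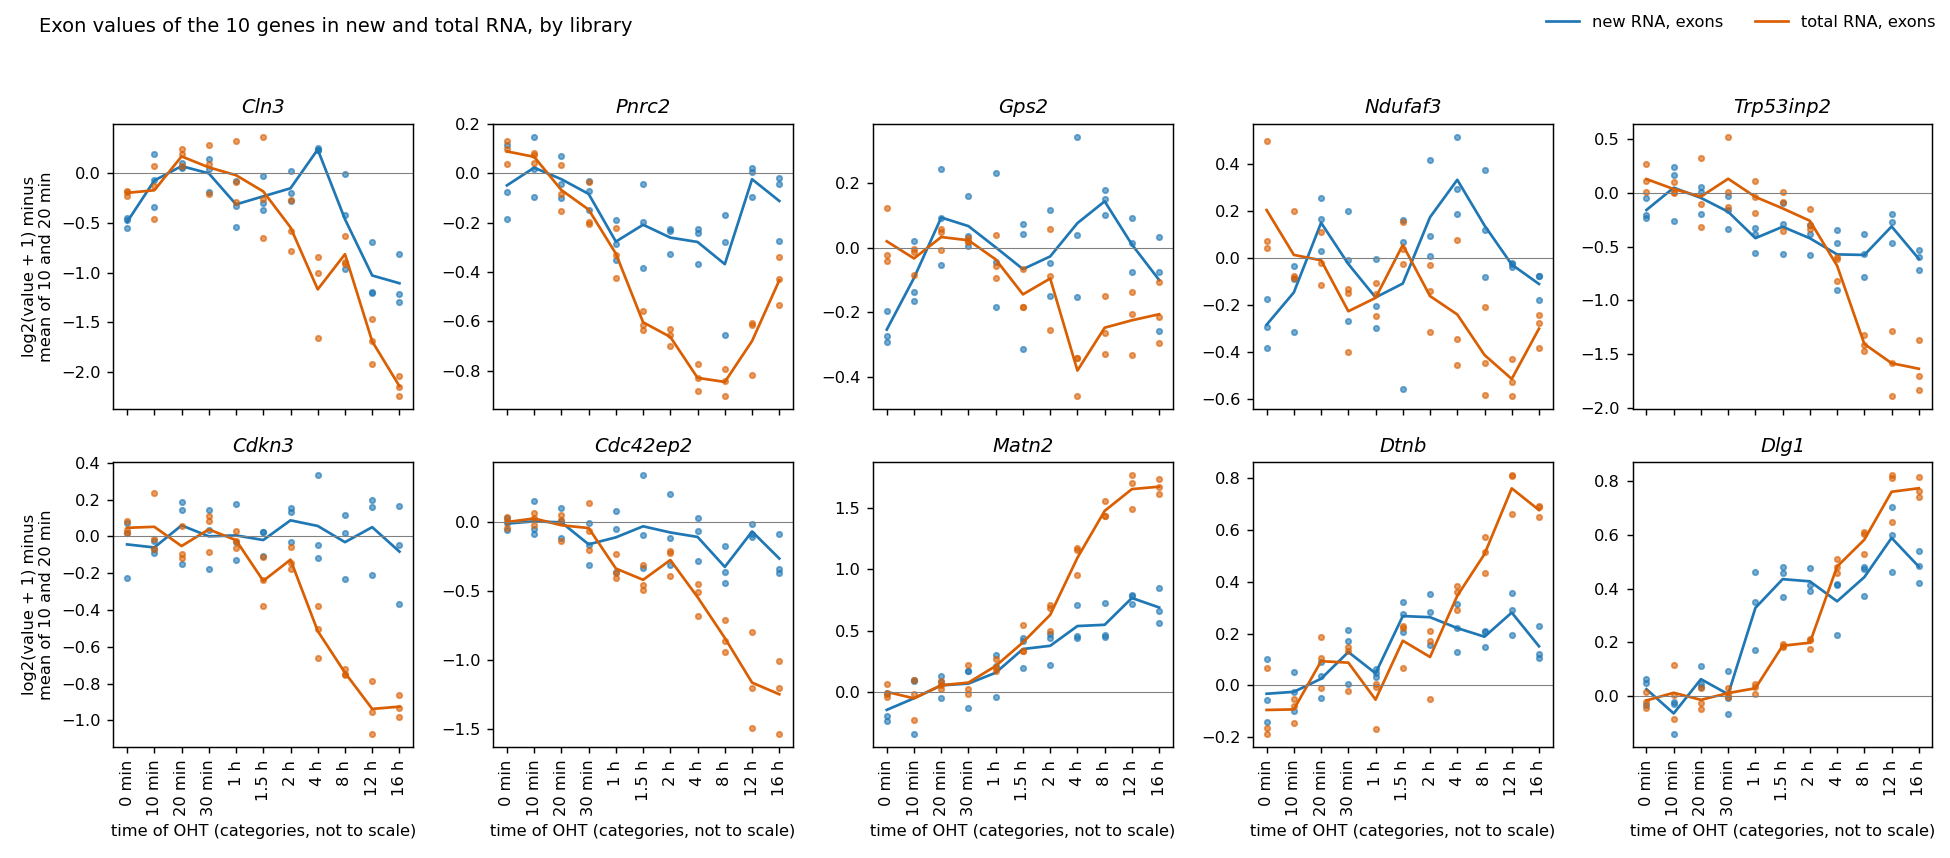
Exon values of the 10 genes at the 11 times in new RNA (blue) and total RNA (orange), as log2(value + 1) minus the mean of the 10 min and 20 min libraries of the same kind; points are the 3 libraries per time and lines join their means. In the panels of Cdkn3 and Cdc42ep2 the late points of total RNA lie further below the early level than those of new RNA, and in those of Matn2 and Dtnb the total RNA moves further up than the new RNA.

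Pnrc2 and Gps2 code for regulators of RNA and of chromatin. Pnrc2 links the nonsense-mediated decay factor Upf1 to the decapping enzyme. Its total exon value was 3524 to 4151 (median 4020) in the 6 early libraries and 2095 to 2568 (median 2237) in the 6 late ones, and the groups did not overlap. In new RNA the early libraries lay between 1375 and 1634 (median 1461) and the late ones between 934 and 1495 (median 1345), with overlap. Its total RNA fell by 0.76 ± 0.04 and new RNA fell by 0.20 ± 0.07 (adjusted p = 0.0139), a difference of -0.57 ± 0.08 (adjusted p = 8.09e-06). The new RNA call was lost without labelled replicate 3 of 8 h (-0.12, adjusted p = 0.095) or labelled replicate 3 of 10 min (-0.16, adjusted p = 0.0515). It was also lost with 12 h alone (-0.02, adjusted p = 0.836) or 20 min alone (-0.17, adjusted p = 0.0863). Gps2 is a subunit of the NCoR/SMRT corepressor with the deacetylase Hdac3. Its total value was 847 to 934 (median 894) early and 712 to 816 (median 763) late, without overlap, while new RNA was 425 to 564 (median 471) early and 451 to 540 (median 509) late. Total RNA fell by 0.24 ± 0.05 (adjusted p = 0.000226). The difference from new RNA was -0.31 ± 0.10, with a 95% interval from -0.51 to -0.12, and was not called (adjusted p = 0.0577); it was called without labelled replicate 3 of 10 min (-0.34, adjusted p = 0.0477) or of 20 min (-0.35, adjusted p = 0.0375).

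Cdkn3 and Cdc42ep2 act in the cell cycle and the cytoskeleton. Cdkn3 is a phosphatase that removes the activating phosphate from Cdk2. Its total value was 360 to 462 (median 381) in early libraries and 185 to 237 (median 229) in late ones, without overlap. New RNA was 268 to 340 (median 289) early and 254 to 342 (median 313) late, so the late range took in the early one. The total RNA fell by 0.84 ± 0.07 and the new RNA change was 0.01 ± 0.09 (adjusted p = 0.94), a difference of -0.85 ± 0.12 (adjusted p = 2.42e-06). Cdc42ep2, a protein that binds the small GTPase Cdc42 and septins, had total values of 684 to 788 (median 765) early and 267 to 459 (median 402) late, again without overlap. Its new RNA was 275 to 332 (median 294) early and 220 to 296 (median 271) late. Thus total RNA fell by 1.00 ± 0.09, the new RNA change was -0.20 ± 0.10 and not called (adjusted p = 0.0838), and the difference was -0.80 ± 0.14 (adjusted p = 9.28e-05). The new RNA fall was called with a replicate block (-0.20, adjusted p = 0.0403), with 8 h alone (-0.33, adjusted p = 0.0244) and with no further scaling (-0.21, adjusted p = 0.0458). With 12 h alone the new RNA change was -0.07 and not called (adjusted p = 0.651).

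Trp53inp2, Cln3 and Ndufaf3 serve autophagy, the lysosome and mitochondria. Trp53inp2 binds proteins of the LC3 and GABARAP families and promotes autophagosome formation. Its total value was 292 to 455 (median 364) early and 97.9 to 149 (median 133) late, and new RNA was 224 to 318 (median 275) early and 156 to 235 (median 200) late. Total RNA fell by 1.49 ± 0.12 and new RNA fell by 0.44 ± 0.10. The difference was the most negative among the 10 genes in this comparison, at -1.05 ± 0.16 (adjusted p = 8.54e-06). Cln3 is a lysosomal membrane protein whose loss causes a childhood neuronal ceroid lipofuscinosis. It had the lowest values of the 10 genes, 36.9 to 60.7 (median 53.7) early and 12.7 to 32.5 (median 22.2) late in total exons, and 37.7 to 54.7 (median 49.8) early and 20.2 to 47.7 (median 26.6) late in new exons. Total RNA fell by 1.25 ± 0.17 and new RNA fell by 0.75 ± 0.16. The difference of -0.51 ± 0.22 was not called (adjusted p = 0.218), with a 95% interval from -0.95 to -0.07. Ndufaf3 is an assembly factor of respiratory complex I. Its total value was 128 to 160 (median 134) early and 92.1 to 120 (median 98.7) late, without overlap, and its new value was 61.9 to 92.5 (median 77.1) early and 73.1 to 100.4 (median 76.0) late. Total RNA fell by 0.47 ± 0.10, new RNA changed by 0.05 ± 0.12 (adjusted p = 0.731), and the difference of -0.52 ± 0.15 was called at an adjusted p of 0.0424. That call was lost in 14 of the 24 fits that left out 1 library, with adjusted p values from 0.053 to 0.0986, and in the fit with no library of 0 min, 4 h or 16 h (adjusted p = 0.0536). These were labelled replicate 1 of 10 min, 2 and 3 of 20 min, 2 and 3 of 8 h, and 1 and 2 of 12 h, and total replicate 2 of 10 min, 2 and 3 of 20 min, 1 and 2 of 8 h, and 2 and 3 of 12 h.

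Matn2, Dtnb and Dlg1 work at the matrix and the cell membrane, and their total RNA rose. Matn2 codes for matrilin-2, an adaptor of matrix filaments. Its total value was 1378 to 1730 (median 1662) early and 4383 to 5517 (median 4674) late, and its new value was 1054 to 1466 (median 1421) early and 1828 to 2319 (median 2215) late, with no overlap in either kind. Total RNA rose by 1.57 ± 0.06 and new RNA by 0.66 ± 0.08, a difference of 0.91 ± 0.10 (adjusted p = 8.18e-09). By p-value it ranked 5 of 11463 genes in this comparison. Dtnb codes for beta-dystrobrevin of the dystrophin-associated complex. Total values were 1283 to 1616 (median 1390) early and 1921 to 2494 (median 2181) late, and new values 1898 to 2163 (median 2043) early and 2254 to 2609 (median 2351) late. Total RNA rose by 0.63 ± 0.05 and new RNA by 0.23 ± 0.05, a difference of 0.40 ± 0.07 (adjusted p = 0.000224). Dlg1 is a scaffold of the Scribble polarity module. Total values were 2689 to 3091 (median 2831) early and 4114 to 5033 (median 4408) late, and new values 1024 to 1220 (median 1134) early and 1462 to 1839 (median 1572) late. It rose by 0.67 ± 0.03 in total RNA and by 0.52 ± 0.05 in new RNA, and the difference of 0.16 ± 0.06 was not called (adjusted p = 0.140; 95% interval from 0.04 to 0.27).

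**Figure D2:**
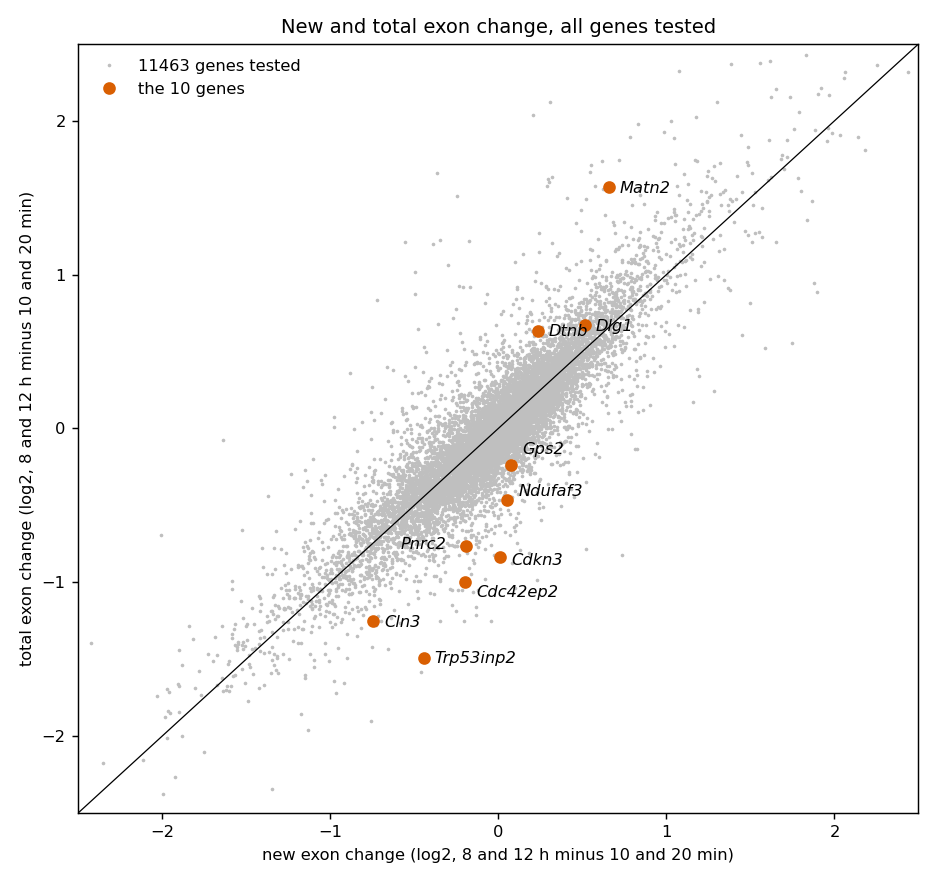
Late minus early exon change in new RNA (horizontal) and in total RNA (vertical), both log2, for the 11463 genes tested (grey) and the 10 genes (orange), with the line of equal change; 17 genes lie outside the axes at 2.5. Cdkn3 sits at 0.01 in new and -0.84 in total RNA, below the line, and Matn2 at 0.66 and 1.57, above it.

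Each of 6 times was also tested against the early libraries; timing was not compared between genes. The difference between total and new exon change was called for 0 of the 10 genes at 30 min (0.201% of all genes called), for 1 at 1 h (0.776%), for 1 at 1.5 h (1.68%), for 0 at 2 h (0.323%), for 4 at 8 h (0.654%) and for 6 at 12 h (4.48%). Unadjusted limma p-values were under 0.05 for 0 of the 10 at 30 min, 1 at 1 h and 3 at 1.5 h. They were so for 3 at 2 h (Pnrc2, Matn2 and Dlg1), 8 at 8 h and 9 at 12 h. The share of all genes under that unadjusted threshold is not given here, so these counts are a description only. Pnrc2 was the gene called at 1.5 h, at -0.40 ± 0.10 (adjusted p = 0.0293), and at 2 h it was at -0.40 ± 0.10 and not called (adjusted p = 0.0658). With 20 min alone as the early group, 0 of the 10 genes were called at 1 h and 0 at 1.5 h. Those fits had fewer early libraries, and their share of all genes called is not given here. Total exon RNA of Pnrc2 was lower at 1 h (-0.33, adjusted p = 0.000124) and stood at -0.85 at 8 h and -0.68 at 12 h. Per library, its total value was 4291, 4019 and 4189 at 0 min, 2095, 2184 and 2256 at 8 h and 2909, 3092 and 2705 at 16 h, so the 16 h libraries lay between the other 2 groups. Dlg1 was the gene called at 1 h: new RNA was up by 0.33 (adjusted p = 0.00014) while total RNA stood at 0.03 (adjusted p = 0.721), a difference of -0.30 (adjusted p = 0.0277). At 12 h the Dlg1 difference was 0.17 and not called (adjusted p = 0.181).

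For Trp53inp2, Cdkn3, Cdc42ep2, Matn2 and Dtnb the calls fell at 8 h or 12 h. At 1.5 h Cdc42ep2 was at -0.39 ± 0.17 and not called (adjusted p = 0.262), close in size to Pnrc2 with a larger error. At 2 h the differences of the 5 genes were 0.16, -0.21, -0.20, 0.25 and -0.15, none of them called. At 8 h Trp53inp2 (-0.83), Cdkn3 (-0.71) and Matn2 (0.93) were called along with Pnrc2 (-0.48). At 12 h Cdc42ep2 (-1.09) and Dtnb (0.48) were called in addition, with Trp53inp2 at -1.27, Cdkn3 at -0.99, Pnrc2 at -0.66 and Matn2 at 0.89. Gps2, Ndufaf3 and Cln3 were called at none of the 6 times, with 12 h differences of -0.24, -0.49 and -0.66 (adjusted p = 0.289, 0.134 and 0.164). The difference at 12 h was also tested against that at 8 h, and 0 of the 10 genes were called, with Cdc42ep2 at -0.58 ± 0.19 (adjusted p = 0.897), Trp53inp2 at -0.44 ± 0.22 (adjusted p = 0.897) and Dtnb at 0.16 ± 0.10 (adjusted p = 0.936). By limma, 1 of the 10 (Cdc42ep2) had an unadjusted p under 0.05 in that test, a count given without the share of all genes. By adjusted p, 1 of 11463 genes was called.

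**Figure D3:**
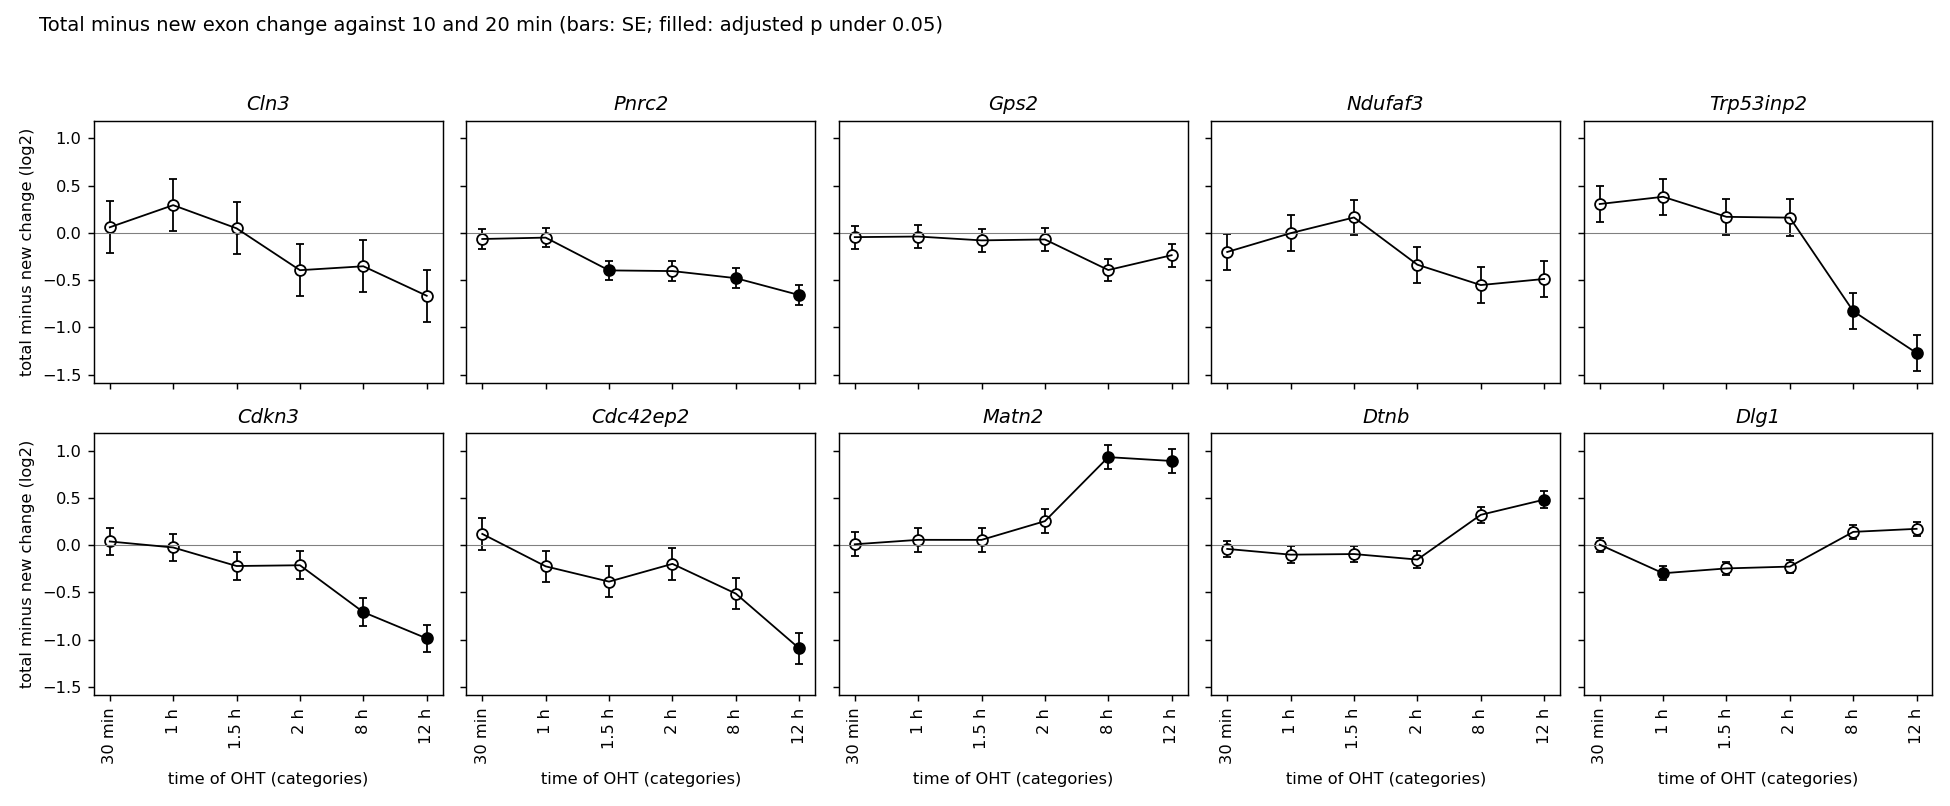
Total minus new exon change against the 10 min and 20 min libraries, log2, at the 6 times that the choice of the genes did not use, with SE bars; filled points had an adjusted p under 0.05. Trp53inp2 lies at 0.16 at 2 h and at -1.27 at 12 h, and Pnrc2 at -0.40 at 1.5 h and -0.66 at 12 h.

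In total exons alone, 0 of the 10 genes were called at 30 min (0.104% of all genes), 2 at 1 h (10.9%), 5 at 1.5 h (19.8%), 3 at 2 h (25.4%), and 10 at both 8 h (55.9%) and 12 h (61.9%). At 30 min 1 gene, Pnrc2, had an unadjusted limma p under 0.05, a count given without the share of all genes. The genes called at 1 h were Pnrc2 and Cdc42ep2 (-0.34). In new exons the 3 genes called at 1 h (20.1% of all genes) were Dlg1, Pnrc2 (-0.28) and Trp53inp2 (-0.42). At 1.5 h (25.8%) they were Dlg1 (0.44), Matn2 (0.35) and Dtnb (0.27). Between 8 h and 12 h new exon RNA of Pnrc2 rose by 0.34 ± 0.10 (adjusted p = 0.0302), where 4.62% of all genes were called. Its values in replicates 1 to 3 were 1215, 1311 and 934 at 8 h and 1495, 1480 and 1378 at 12 h, with replicate 3 of 8 h the lowest. Over the same interval total exon RNA of Cln3 fell by 0.88 ± 0.24 (adjusted p = 0.0327) and that of Dlg1 rose by 0.18 ± 0.05 (adjusted p = 0.03), where 4.06% were called.

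Introns gave another view of new RNA, from the same libraries as the new exons. New intron RNA rose for 4 of the 10 genes and fell for 3, beside 31.7% and 28.9% of 11506 genes. With library sums for scaling, the median intron change of all genes moved to 0.11 and 4840 of 7380 calls were higher, beside 3652 higher and 3327 lower. Matn2 introns went from 3099 to 4096 (median 3809) in early libraries to 8370 to 10041 (median 8644) in late ones, a rise of 1.24 ± 0.05. Dtnb introns went from 5783 to 6837 (median 6318) to 10618 to 12516 (median 11264), a rise of 0.87 ± 0.04. Dlg1 introns went from 14517 to 15910 (median 15193) to 17620 to 22699 (median 19451), a rise of 0.38 ± 0.05. None of these 3 pairs of groups overlapped, and the share of all genes without overlap is not given here. The intron rise of all 3 genes was called at 30 min, at 0.30 for Matn2, 0.27 for Dtnb and 0.20 for Dlg1. They were the only ones of the 10 genes called at that time. Over all 11506 genes 1571 rose and 1241 fell at 30 min (24.4% called in either direction). At 1 h Matn2, Dtnb and Dlg1 stood at 0.70, 0.70 and 0.50, where 2202 genes rose and 2129 fell (37.6% called). At 30 min their new exon changes were 0.07, 0.13 and 0.01, and 0 of them were called; the difference between exons and introns at that time was not tested.

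Among the genes with falling total RNA, introns differed. Cln3 introns fell by 0.87 ± 0.16, those of Trp53inp2 fell by 0.75 ± 0.23 and those of Cdc42ep2 fell by 0.91 ± 0.14. Cdc42ep2 introns were 143 to 217 (median 176) early and 83.7 to 114 (median 87.4) late, without overlap. Cdkn3 introns were 527 to 685 (median 620) early and 629 to 729 (median 708) late, with a change of 0.17 ± 0.07 at an adjusted p of 0.0491, a call that was lost in 9 of the 12 fits that left out 1 library (adjusted p up to 0.137) and held without labelled replicate 3 of 10 min, of 20 min or of 8 h; with no library of 0 min, 4 h or 16 h it was lost (adjusted p = 0.0707). Pnrc2 (0.08), Gps2 (0.08) and Ndufaf3 (0.24) were not called in new introns. In introns of total RNA 3 genes rose and 3 fell, beside 27.2% and 27.1% of 11474 genes, and they were Matn2 (0.94), Dtnb (0.96), Dlg1 (0.52), Cln3 (-0.71), Trp53inp2 (-1.16) and Cdc42ep2 (-0.73).

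**Figure D4:**
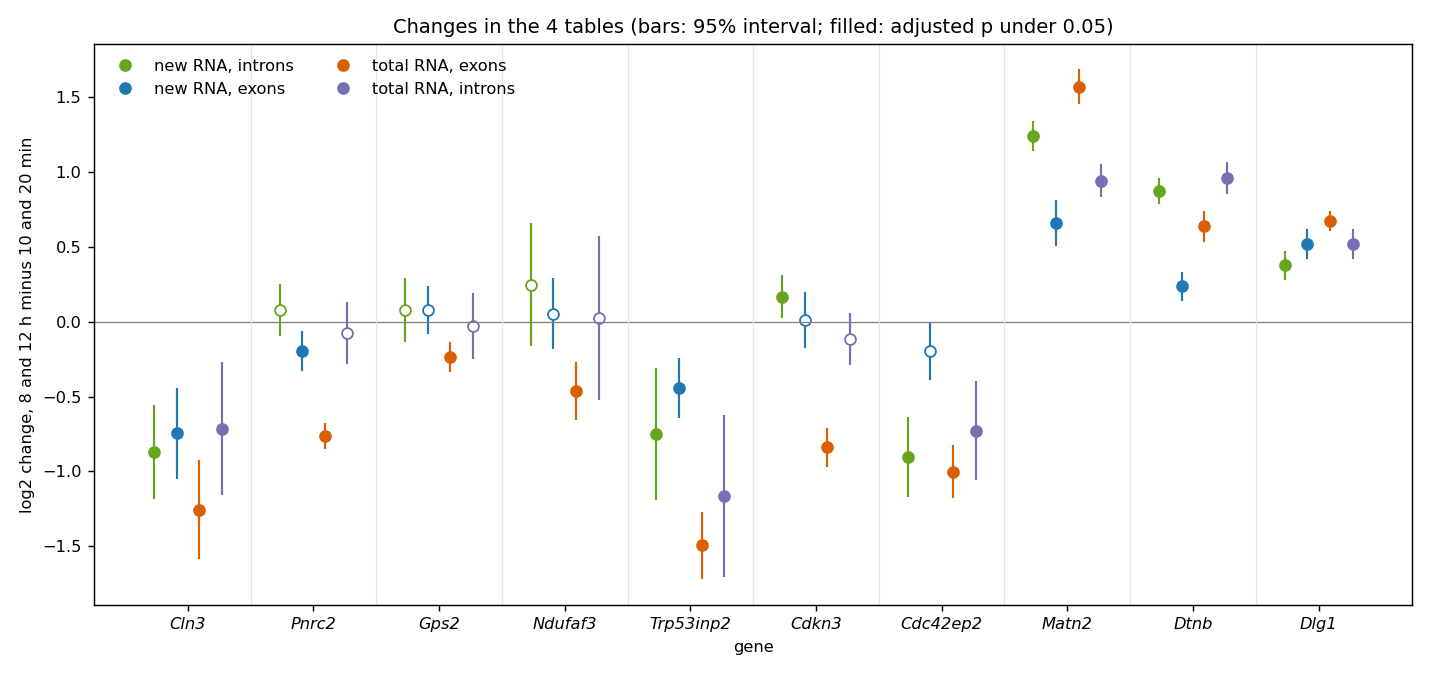
Late minus early change of the 10 genes in the 4 tables (new introns green, new exons blue, total exons orange, total introns purple), log2 with 95% intervals; filled points had an adjusted p under 0.05. The orange points of all 7 genes with falling total exon RNA lie below the other 3 points of the same gene. For Dtnb both intron points lie above both exon points.

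Set against new introns in place of new exons, total exon RNA differed for 8 of the 10 genes, higher for 2 and lower for 6, beside 15.7% and 14.7% of 11479 genes. With library sums for scaling 1056 of 3755 calls over all genes were higher. Cdkn3 (-1.01 ± 0.10), Pnrc2 (-0.84 ± 0.10), Trp53inp2 (-0.75 ± 0.26), Ndufaf3 (-0.71 ± 0.21) and Gps2 (-0.31 ± 0.12, adjusted p = 0.0408) were called with the same sign as in exons. The Gps2 call was lost in 14 of the 24 fits without 1 library (adjusted p up to 0.0806). These were labelled replicates 1 and 2 of 10 min, 1 and 2 of 20 min, 2 and 3 of 8 h and 3 of 12 h, and total replicates 1 and 2 of 10 min, 1 and 2 of 20 min, 2 and 3 of 8 h and 3 of 12 h. That of Trp53inp2 was lost in 5 of them: without labelled replicate 2 of 10 min (adjusted p = 0.0617), labelled replicate 1 of 20 min (0.0589), labelled replicate 2 of 8 h (0.0584), total replicate 3 of 20 min (0.0548) or total replicate 2 of 12 h (0.0511). Matn2 (0.33 ± 0.08) and Dlg1 (0.30 ± 0.06) were called higher. For Dtnb the sign turned, with a difference of -0.24 ± 0.07 (adjusted p = 0.00572) from new introns and of 0.40 from new exons; on log2(RPKM + 0.1) the former was -0.15 and not called (adjusted p = 0.0815). Cdc42ep2 (-0.10 ± 0.17, adjusted p = 0.709, 95% interval from -0.42 to 0.23) and Cln3 (-0.39 ± 0.23, adjusted p = 0.219) were not called. New introns of Ndufaf3 were low, at 9.74 to 18.4 (median 15.0) early and 11.6 to 22.5 (median 18.4) late, near the filter of 10. Its call was lost in 0 of the 24 fits without 1 library. With 10 min alone it was lost (adjusted p = 0.0645), as were those of Gps2, Trp53inp2 and Dtnb. With 12 h alone it was lost (adjusted p = 0.0701), as were those of Gps2 and Dtnb.

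The gap between the new exon and new intron readings was tested in a comparison added after the data were seen. New exon change exceeded new intron change for Cdc42ep2 by 0.71 ± 0.17 (adjusted p = 0.00471) and fell short of it for Matn2 (-0.58 ± 0.10, adjusted p = 3.86e-05) and Dtnb (-0.64 ± 0.06, adjusted p = 2.11e-10). Over all 11481 genes 4.99% were called with exons higher and 2.51% with exons lower. Library sums gave 274 of 1132 calls with exons higher and log2(RPKM + 0.1) gave 540 of 991, beside 573 higher and 288 lower. Exon and intron values of a library share its cells and its RNA. In a fit to the exon minus intron differences within each library, 5 of the 10 genes were called. Pnrc2 (-0.27, adjusted p = 0.0217) and Dlg1 (0.14, adjusted p = 0.0241) were called in addition. Calls over all genes rose in that fit too (counts in the last paragraph), so the higher count is not read as a result about the 10.

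**Figure D5:**
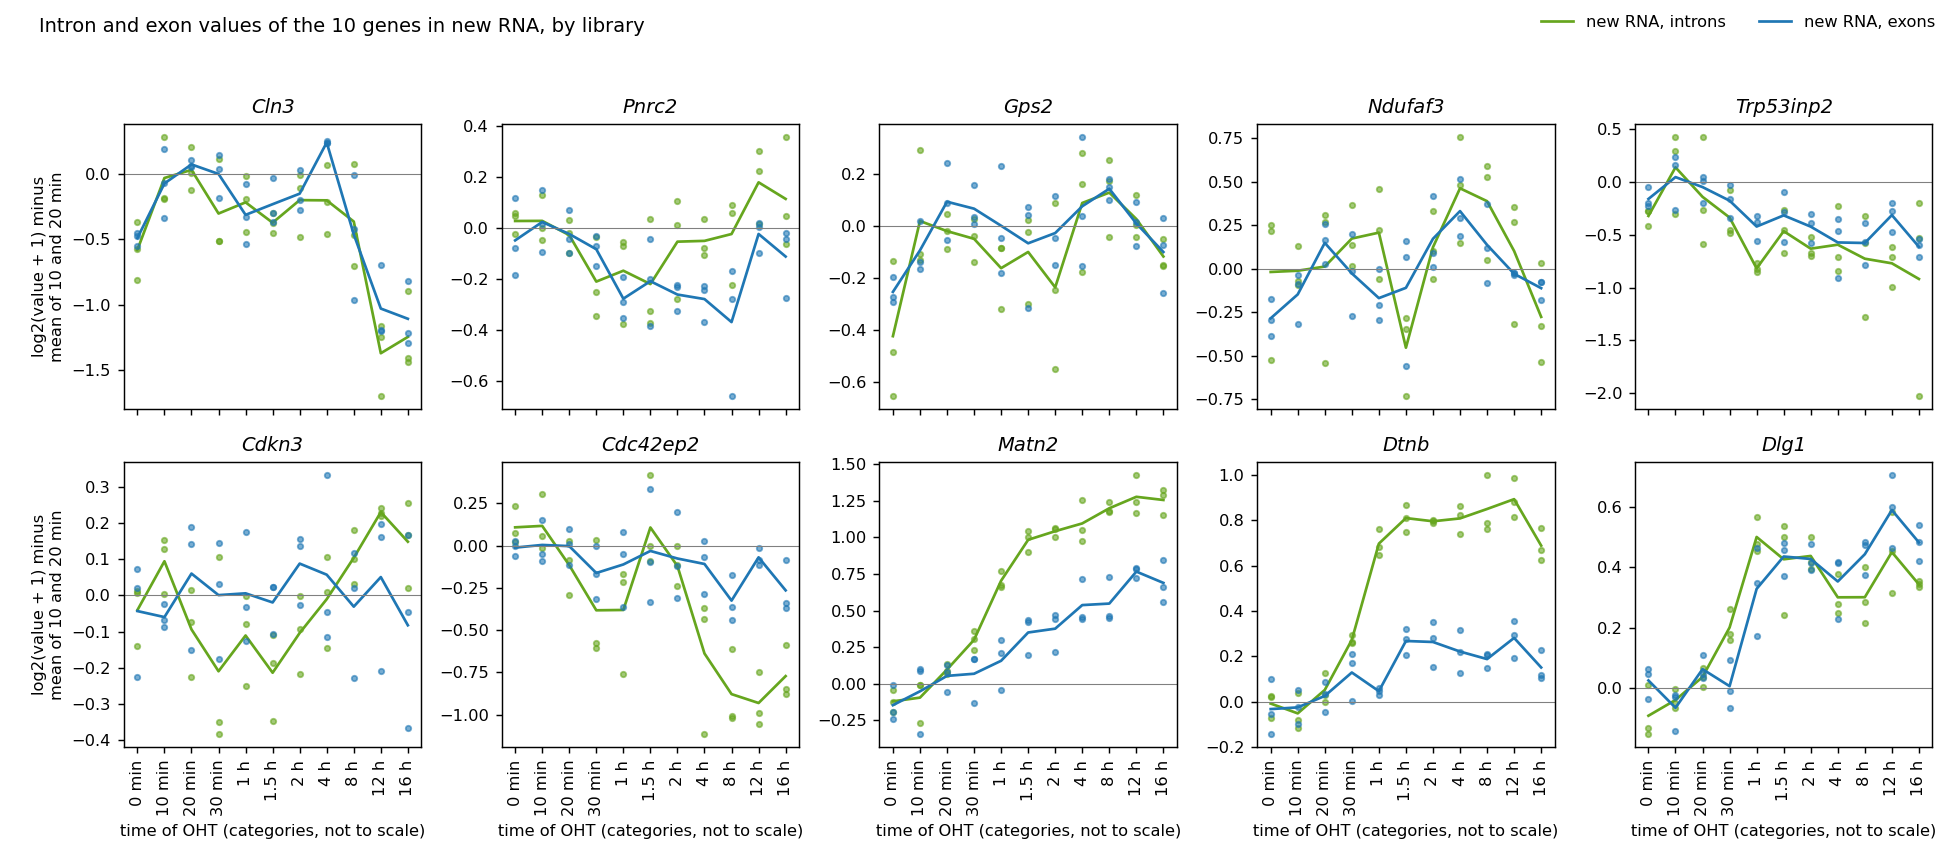
Intron (green) and exon (blue) values of the 10 genes in new RNA at the 11 times, as log2(value + 1) minus the mean of the 10 min and 20 min libraries; points are the 3 libraries per time and lines join their means. Introns of Dtnb stand at 0.70 at 1 h while its exons stand at 0.05, and introns of Cdc42ep2 lie at -0.88 at 8 h while its exons lie at -0.33.

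The values that chose the genes are as follows. At 4 h against 0 min, 4 of the 10 genes were past the threshold that the fit uses for calls, and at 16 h 6 were, out of 7 (0.0611%) and 38 (0.332%) of all genes; nothing is read from these shares, since they are the basis of the choice. Cln3 was past it at both times, with differences of -1.70 ± 0.32 and -1.33 ± 0.32. Pnrc2 (-0.69), Gps2 (-0.73) and Ndufaf3 (-1.06) were past it at 4 h. Trp53inp2 (-1.31), Cdkn3 (-0.93), Cdc42ep2 (-0.99), Matn2 (0.84) and Dtnb (0.59) were past it at 16 h. Dlg1 was past it at neither time, with 0.17 ± 0.08 at 4 h and 0.33 ± 0.08 at 16 h. Nearest to the threshold at 4 h were Ndufaf3 (-1.06 ± 0.22) inside it and Cdkn3 (-0.66 ± 0.17) outside it, and at 16 h Cln3 (-1.33 ± 0.32) inside it and Dlg1 (0.33 ± 0.08) outside it.

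For Cln3, Gps2 and Ndufaf3 the new RNA values at 0 min were lower than those at 4 h. New exon values of Cln3 were 34.8, 34.2 and 32.4 at 0 min, 45.5, 54.7 and 37.7 at 10 min, 56.5, 57.2 and 56.5 at 4 h and 26.74, 20.05 and 18.95 at 16 h. Total values of Cln3 were 43.5, 44.8 and 45.0 at 0 min, 28.04, 24.95 and 15.4 at 4 h and 10.7, 10.0 and 11.6 at 16 h. The 4 h libraries of new RNA thus stood above those of 0 min while the 4 h libraries of total RNA stood below. Gps2 had new values of 416, 388 and 394 at 0 min and 428, 605 and 489 at 4 h, beside total values of 872, 884 and 978 and then 708, 708 and 653. Ndufaf3 had new values of 59.0, 68.4 and 62.9 at 0 min and 88.2, 95.0 and 111 at 4 h, and total values of 143, 196 and 146 and then 109, 147 and 101. For these 3 genes the new exon change against 0 min at 4 h was 0.73 (Cln3), 0.33 (Gps2) and 0.62 (Ndufaf3), whereas in the late libraries against the early ones it was -0.75, 0.08 and 0.05.

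For the other genes total exon values at 16 h lay on the same side of those at 0 min as the late libraries of the early ones; Pnrc2 is given above. Trp53inp2 had total values of 366, 392 and 438 at 0 min and 101, 140 and 111 at 16 h, and new values of 234, 229 and 261 and then 178, 185 and 164. Cdkn3 went from 416, 401 and 397 to 198, 204 and 215 in total RNA and from 303, 314 and 255 to 335, 289 and 231 in new RNA. Cdc42ep2 had 758, 728 and 771 at 0 min and 375, 326 and 259 at 16 h in total RNA. Matn2 stood at 1596, 1577 and 1689 in total RNA at 0 min and at 4969, 5407 and 5162 at 16 h, and Dtnb at 1246, 1487 and 1268 and then 2290, 2297 and 2231. For Dlg1 the total values were 2764, 2809 and 2883 and then 4833, 4763 and 5015.

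Gene structure, which the rule did not use, came from GENCODE M1 on mm9. The 7 genes whose total RNA fell have short introns, from 0 bases for Cdc42ep2 to 9897 bases for Cdkn3 in all, at the 29.5th percentile of 10384 genes or below. The 3 genes whose total RNA rose have 125985 (Matn2), 199813 (Dtnb) and 200951 (Dlg1) intron bases, at percentiles 90.7 to 95.3. Intron length was not compared between all genes that fell and all genes that rose. Whether this split goes beyond a trend over all genes, or beyond chance among so few chosen genes, was not tested. Matn2 lies at chr15:34236436-34366029, Dtnb at chr12:3572381-3781796, Dlg1 at chr16:31663529-31873436, Trp53inp2 at chr2:155206795-155215586, Gps2 at chr11:69727390-69730093 and Cdkn3 at chr14:47380216-47391200, all on the plus strand. Pnrc2 lies at chr4:135426833-135429765, Cln3 at chr7:133714721-133729331, Ndufaf3 at chr9:108468197-108469673 and Cdc42ep2 at chr19:5917561-5918995, all on the minus strand. Exons of Cln3 share 442 bases (7.65% of its exon bases) with Apobr on the other strand, and whether the counting used strand is not given in the sources used here, so reads of the pair may not be told apart. The exon bases of the other 9 genes overlap no other gene's exons.

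The annotation may differ from that behind the counts. Cdc42ep2 has 1 exon and no intron in GENCODE M1, yet the intron tables hold values for it, so the intron counted is not one of this annotation. The exon length implied by count and RPKM values, set against the GENCODE M1 exon length on a scale where the median gene is 1, was 2.15 for Cdkn3, 2.14 for Cdc42ep2 and 1.77 for Matn2, above the 95th percentile of all genes (1.64), and 0.629 to 1.05 for the other 7. In the 3′ untranslated regions of this annotation the pentamer ATTTA stood in 7 of the 10 genes, beside 65.1% of 10168 genes, with 6 copies in Pnrc2 and 4 in Dlg1. The nonamer TTATTTATT stood in 0 of the 10, beside 7.1% of genes. Both were searched on the RNA strand, and ATTTA lies within the nonamer.

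Per length, early total exon levels ran from 0.242 RPKM for Cln3 (percentile 9.52 of 11456 genes) to 33.3 RPKM for Pnrc2 (percentile 85.3). In that order came Cln3, Trp53inp2 (1.41), Ndufaf3 (2.11), Cdkn3 (2.86), Dtnb (2.88), Cdc42ep2 (4.18), Matn2 (4.34), Dlg1 (8.46), Gps2 (11.7) and Pnrc2. The ratio of new to total exon RPKM was above that of the median gene in all 10, where the new and total tables were scaled separately, so that only the order of genes can be read. It ran from the 60.4th percentile for Pnrc2 to the 93.2nd for Dtnb, with Cln3 at 88.7, Matn2 at 86.8, Cdkn3 at 85.4 and Trp53inp2 at 84.9.

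Genes of the pathways to which the 10 belong were read from 10 lists, 1 per gene. Of 144 other list genes tested, 8 were called with total change above new change and 4 below, with a median of 0.02, beside 2.27% and 1.67% of all genes. The counts for new and for total exons below stand beside 28.2% up and 28% down, and 31.1% up and 34.5% down, of all genes. Complex I assembly, the list of Ndufaf3, had 9 of 13 genes up and 0 down in new exons, and 10 up and 2 down in total exons, with medians of 0.31 and 0.33. Its one gene with unequal change was Acad9, a dehydrogenase-family assembly factor (0.27). The Cdc42 effectors and septins, the list of Cdc42ep2, had 0 up and 12 down of 15 in new exons, 0 up and 14 down of 16 in total exons, and 0 with unequal change. Decapping and nonsense-mediated decay genes, the list of Pnrc2, had 5 up and 4 down of 20 in new exons and 11 up and 2 down in total exons, again with 0 unequal. In the NCoR/SMRT list of Gps2, 0 of 5 genes were called in new exons and 1 fell in total exons.

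The autophagy list of Trp53inp2 had 3 up and 9 down of 20 in new exons and 1 gene with unequal change. That gene was Trp53inp1, the paralogue of Trp53inp2 and a p53 target, whose new exon RNA changed by 0.52 and total exon RNA by -0.35, a difference of -0.87 ± 0.14 (adjusted p = 3e-05). Of the 17 CDK regulators in the list of Cdkn3, 3 were called lower and 1 higher in total than in new RNA. The mitotic activators Cdc25c (-0.59 ± 0.10, adjusted p = 3.02e-05) and Ccnb2 (-0.32 ± 0.06, adjusted p = 0.000364) were lower, as was Ccnb1 (-0.19, adjusted p = 0.0422), and the G1/S cyclin Ccne1 was higher (0.21, adjusted p = 0.0464). In the matrix list of Matn2 3 of 12 genes had a total change above the new change. They were fibrillin-1 Fbn1 (0.36), fibulin-2 Fbln2 (0.26) and laminin beta-1 Lamb1 (0.21), with adjusted p values from 0.0311 to 0.0487. Unlike those of Matn2, their changes were negative in both kinds of RNA, and less so in total RNA. New and total exon changes were -0.56 and -0.20 for Fbn1, -0.48 and -0.22 for Fbln2 and -0.84 and -0.63 for Lamb1. New exon RNA of that list was up for 1 and down for 7 of 12, and total exon RNA was up for 1 and down for 5 of 12. In the dystrophin list of Dtnb 11 genes were tested, with 7 down and 1 up in new exons. There utrophin Utrn had a total change above the new change (0.24, adjusted p = 0.0494). Its changes were -0.80 in new and -0.55 in total exons. The total change was also above the new change for Pard3 in the polarity list of Dlg1 (16 tested; 0.20, adjusted p = 0.036). For Atp13a2 in the lysosomal list of Cln3 (15 tested) the difference was 0.25 (adjusted p = 0.0356). New and total exon changes were 0.09 and 0.29 for Pard3 and 0.11 and 0.36 for Atp13a2.

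The exon courses of the genes resembled each other to differing degrees, by Pearson's r over 22 values (mean log2 level at 11 times in new and in total RNA, each centred on its own kind). The values come from the same libraries and are given as a description. They include the exon values at 0 min, 4 h and 16 h that chose the genes. Trp53inp2, Cdkn3 and Cdc42ep2 had r of 0.93 to 0.95 with each other, Matn2 and Dlg1 0.95, and Gps2 and Ndufaf3 0.67. Of 9554 other genes compared, the most alike of Trp53inp2, Cdkn3 and Cdc42ep2 was in each case Nagk, the N-acetylglucosamine kinase (r of 0.96, 0.96 and 0.96), with a new exon change of -0.12 and a total exon change of -1.05. The most alike of Matn2 was Daglb (0.98), of Dlg1 Abcc4 (0.98), of Dtnb Sept3 (0.95), of Cln3 Pxdc1 (0.93) and of Pnrc2 Syt11 (0.92). Gps2 and Ndufaf3 had less close neighbours, Atat1 (0.80) and Dyrk1b (0.79). Total minus new exon change, late against early, was 0.46 for Daglb, 0.23 for Abcc4, 1.16 for Sept3 and 0.07 for Pxdc1. It was -0.38 for Syt11, -0.20 for Atat1 and -0.23 for Dyrk1b. The difference of Pxdc1 was thus opposite in sign to that of Cln3.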

How the data were processed

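Newly made RNA (labelled with 4-thiouridine) and total RNA were measured by sequencing, and the submitters' processing notes list TopHat2 2.0.8, TopHat and mm9. The authors deposited 8 tables of 11513 genes, exons and introns apart; no source used here gives the counting tool, the annotation or the use of strand. What the authors deposited under the name counts was rescaled and rounded, and was treated as a score: 13 of 66 libraries nearly lacked certain whole numbers between 2 and 28. The deposited RPKM values equal them times 1 constant per gene, within 0.646% (rounding).

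Each of 4 count tables was scaled between libraries with a trimmed mean of the log ratios (30% of ratios and 5% of levels trimmed; factors 0.921 to 1.09). Genes at 10 or more in 3 or more libraries were fitted with limma 3.58.1 in R 4.3.3 on log2(value + 1), 1 mean per RNA kind and time with the spread pooled over all times, a trend of variance over level, two-sided tests and Benjamini-Hochberg adjustment over all genes. Total and new changes were compared by an interaction contrast. In simulated data on 11470 genes, 82% and 64% of genes changed by -0.5 and 0.5 were called in the total against new comparison. Columns were matched to samples by kind, time and replicate number. Alternatives were other scalings, pseudocounts, filters, variance models, replicate blocks, single times, left-out libraries and, added after the data were seen, fits with no library of 0 min, 4 h or 16 h. The 10 genes and the gene lists were chosen with earlier results of these data known. Genes named are the 10, up to 3 called genes per list with a mean of at least 50, Ccnb1 (named after its value was seen) and the most alike gene of each.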

Additional observations from a re-analysis of the deposited data

Results flagged for a closer look

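In 3 genes the new exon and new intron changes differed between late and early libraries: Cdc42ep2 (0.71, exons higher), Matn2 (-0.58, exons lower) and Dtnb (-0.64, exons lower). In 3 further cases the change at 12 h differed from that at 8 h by a test of the difference itself: new exons of Pnrc2 (0.34), total exons of Cln3 (-0.88) and total exons of Dlg1 (0.18). For Pnrc2 the lowest library was replicate 3 of 8 h. The 3 libraries per time were too few for a check of single outlying samples.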

How the results depend on the processing

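Over 7 comparisons the 10 genes had 2224 values under alternative settings: 2131 kept their side of the threshold (47 of them, never called, with the other sign), 82 kept the direction and lost the call, 11 gained it and 0 reversed a called sign. Members called for total against new exons numbered 7, and 4 with 8 h alone; total exons against new introns gave 8, and 4 with 10 min alone and 5 with 12 h alone. New exons against new introns gave 3, and 5 within libraries. At 1 h 1 gene was called, and 0 with 20 min alone; at 1.5 h 1, and 2 with 10 min alone and 0 with 20 min alone. The cause was not tested, and the calls over all genes in these 1 h and 1.5 h fits are not given here. Leaving out 1 library gave 6 to 8 members for total against new exons, 6 to 8 for total exons against new introns, 5 to 6 for new exons, 6 to 7 for new introns, 3 to 3 for new exons against new introns, and, in total RNA, 10 to 10 for exons and 6 to 6 for introns.

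Same-numbered new and total libraries of a time had correlations of -0.14 to 0.54 (median 0.23), over 0.1 in 26 of 33 and best with the own number in 28 of 33, as a hint from the data. Same-numbered libraries of different times had -0.37 to 0.58 (median 0.15, over 0.1 in 98 of 165) in new RNA. In total RNA they had -0.41 to 0.75 (median 0.22, over 0.1 in 121 of 165). The labels state no pairing and not every correlation was over 0.1, so the block is an alternative and not the main design. With the replicate block, 8 members were called for total against new exons, Gps2 in addition (adjusted p = 0.0468), and 8 again for differences within pairs; in new exons Cdc42ep2 was called in addition (adjusted p = 0.0403); at 2 h 1 was called, beside 0. Over all genes the block gave 648 calls, within pairs 682, beside 451.

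All-gene calls for total against new exons fell to 88 with 10 min alone, 75 with 8 h alone and 242 without total replicate 3 of 12 h. For total exons against new introns they were 3492, 1103 with 10 min alone and 1605 with 8 h alone. For new exons against new introns they were 861, 570 with no further scaling, 118 with 10 min alone, 220 with 8 h alone, 1826 within libraries and 564 without labelled replicate 3 of 10 min. Read depth is unknown, so the counting error of low genes such as Cln3 and Ndufaf3 could not be estimated.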
